A study of Mus musculus with 8 samples.

Results

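The genes described here encode subunits of the transcription factor NF-kB (Rela, Rel, Relb, Nfkb1 and Nfkb2) and proteins that control it. Nfkbia, Nfkbib, Nfkbie and Tnfaip3 encode proteins that hold it in check, and Ikbkb encodes a kinase that releases it. Together these are 10 of the 27745 gene names on the array. Every non-control probe that the array annotation assigned to 1 of these 10 genes was taken, whatever its signal, which gave 14 of 41174 probes. Of these, 8 probes of 7 genes passed the filter on dim probes, against 18389 of 41174 on the whole array. Total RNA of bone marrow hematopoietic stem cells (HSCs) of mouse strain B6 was hybridised to 8 Agilent 1-colour arrays with 1 sample each: 3 NrasG12D/G12D (2 mutant alleles), 3 NrasG12D/+ (1 mutant allele) and 2 Nras+/+ (none, the controls). NrasG12D is an activated form of the small GTPase Nras, here expressed from the gene's own locus. The labels give no age and do not say whether each sample was a separate animal or a pool, so each p-value speaks only of the spread among these arrays.

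NF-kB is a family of dimeric transcription factors that turn on genes of inflammation, survival and immune cell development. In resting cells the dimers are held in the cytoplasm by IkB proteins. A kinase complex that contains Ikbkb marks the IkB proteins for destruction, which lets the dimers reach the nucleus, where they also switch on the genes of their own inhibitors. In blood stem cells the pathway is known for its part in the response to inflammatory signals and in cell survival.

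The array reads each gene through probes of 60 bases, of which 4 are shown. The Nfkb2 and Nfkbia probes gave signal on all 8 arrays. The Rel probe did so too but is not shown, and its coordinates span only 15 bases. Of the other probes, that of Nfkbib was the most often detected. The Rela probe is the member with 10 replicate spots on every array together with signal above background. Coordinates are those in the array files, which name no genome build and no exon. In the annotated transcripts the Nfkb2, Nfkbia, Nfkbib and Rela probes begin at base 2814, 914, 1077 and 1714.
Nfkb2 probe, chr19:46364967-46365106: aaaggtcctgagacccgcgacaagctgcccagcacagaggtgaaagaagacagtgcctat
Nfkbia probe, chr12:56408088-56408583: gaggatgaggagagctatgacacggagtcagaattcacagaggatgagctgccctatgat
Nfkbib probe, chr7:28467908-28468589: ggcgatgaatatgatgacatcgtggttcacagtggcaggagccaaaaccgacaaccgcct
Rela probe with 10 spots, chr19:5647136-5647195: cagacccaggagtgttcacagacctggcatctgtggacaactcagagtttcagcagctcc
The Nfkb2, Nfkbia and Nfkbib coordinates span 140, 496 and 682 bases, more than the 60 bases of the probe, as for a probe that bridges a splice junction. The Rela coordinates span 60 bases.

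NF-kB is known to act on several of its own genes, so their promoters were searched for its recognition motif. Windows that reach 250 bases before and 50 after each annotated start were available from RefSeq (build GRCm38.p6) for 7 of the 10 genes and were searched on both strands for the NF-kB consensus motif of 10 bases. Of these 7 genes, 4 held at least 1 match, or 6 of their 10 windows, beside 6.55% of all 27025 genes and 5.81% of all 32851 windows. Several of the windows with a match belong to Nfkb2. Its windows at chr19:46305445-46305744 and chr19:46305680-46305979 overlap and share a match, so the windows are not independent. For each of these 4 genes, a stretch before a start is printed that holds the match nearest to that start on that side, with matches in capitals. A further Nfkb2 match, at position 10 after the start of the window at chr19:46305445-46305744, is not printed.
Nfkbia, chr12:55492648-55492707, minus strand, bases -60 to -1: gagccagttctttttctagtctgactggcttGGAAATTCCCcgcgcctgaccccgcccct
Tnfaip3, chr10:19015411-19015470, minus strand, bases -60 to -1: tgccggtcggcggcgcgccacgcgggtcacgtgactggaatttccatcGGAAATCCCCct
Nfkb2, chr19:46304677-46304736, plus strand, bases -60 to -1: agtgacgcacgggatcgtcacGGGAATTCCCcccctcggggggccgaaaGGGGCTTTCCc
Rel, chr11:23771030-23771089, minus strand, bases -120 to -61: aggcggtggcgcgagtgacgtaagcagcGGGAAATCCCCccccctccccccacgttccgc
In Nfkb2 the match at position -39 reads as the motif on both strands, and in Rel the matches at -92 and -91 overlap. The Rela, Nfkbib and Nfkbie windows held no match. A match describes these letters, and binding was not measured.

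All values below are processed signals, a linear intensity after background subtraction, scaled so that each array has the same 75th percentile over the 6188 probes that stood well above background everywhere. A probe was called well above background by the scanner software, spot by spot. Between 26% and 42.4% of the spots on an array met that call, and NrasG12D/+ replicate 1 correlated least with the other arrays across probes (mean r = 0.537, against 0.598 to 0.615 for the other 7). Of 11 HSC marker genes on the array, 8 were above background on at least 1 array and 3 on all 8, while Gata2, Procr and Tek were above background on none. In order of replicate number, summed HSC marker signal was 204, 727 and 295 on NrasG12D/G12D arrays and 259, 818 and 286 on NrasG12D/+ arrays. On Nras+/+ arrays it was 577 and 815. The part of these differences in the values below was not tested. Summed neutrophil marker signal lay between 99.2 and 28983 on NrasG12D/G12D arrays, between 156 and 44344 on NrasG12D/+ arrays and between 209 and 260 on Nras+/+ arrays. The sum of 28983 was read on NrasG12D/G12D replicate 3, where 2 of 8 neutrophil markers were above background. In RNA from a whole cell sample, fewer cells of a type and less RNA per cell cannot be told apart.

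Nfkb2, Nfkbia and Rel were well above background on all 8 arrays. Nfkbib was above on 5 arrays, Rela on 4 with its 1-spot probe and on 2 with its 10-spot probe, Relb on 3, Nfkbie on 2 and Tnfaip3 on 1. Nfkb1, with 4 probes, and Ikbkb, with 1, were above background on no array. The number of the 14 probes above background was 8, 3 and 5 on the NrasG12D/G12D arrays, 7, 6 and 3 on the NrasG12D/+ arrays and 4 and 5 on the Nras+/+ arrays, in order of replicate number. The genotypes overlapped in this number. The lowest counts, 3 each, fell on NrasG12D/G12D replicate 2 and NrasG12D/+ replicate 3. There 24.9% and 28.2% of all probes were above background, the lowest shares of the 8 arrays. The highest count, 8, fell on NrasG12D/G12D replicate 1 at a share of 29.7%. Nras+/+ replicate 1 had 4 at 35.6%, and NrasG12D/+ replicates 1 and 2 had 7 and 6 at 40.5% and 41.8%. What set these counts was not tested.

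**Figure D1:**
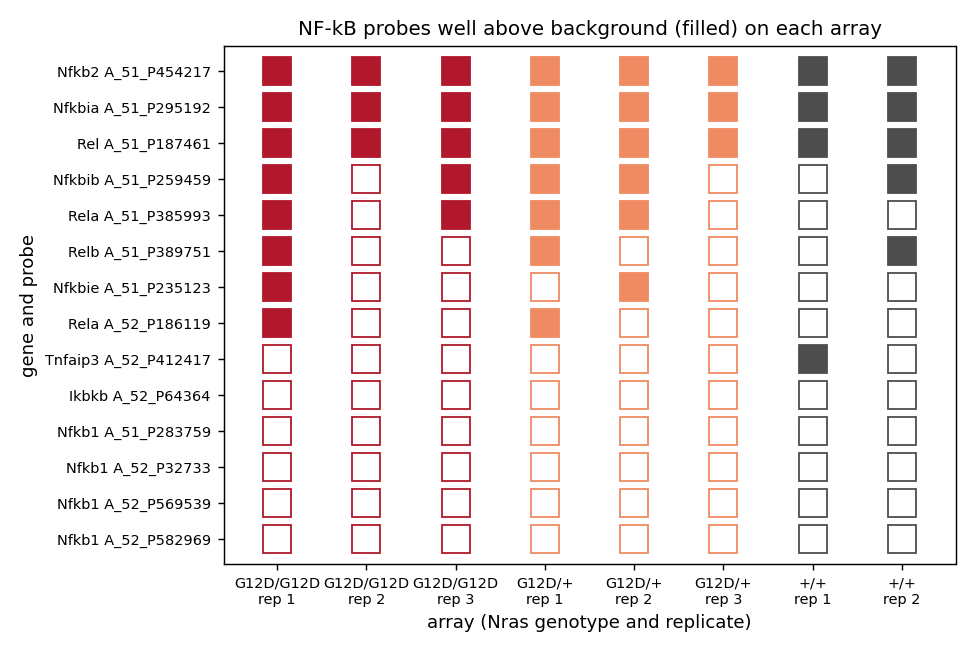
Each square is 1 probe (rows, named by gene and probe) on 1 array (columns, by Nras genotype and replicate), filled where the probe was well above background. The 3 top rows, Nfkb2, Nfkbia and Rel, are filled on all 8 arrays, and the 5 rows of Ikbkb and Nfkb1 on none.

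Rela encodes p65, the subunit that carries most of the activating power of the common NF-kB dimer. Its 1-spot probe read 80.4, 5.65 and 12.9 in NrasG12D/G12D HSCs, 102, 111 and 9.48 in NrasG12D/+ HSCs, and 3.67 and 11.4 in Nras+/+ HSCs. The high values lay on 3 of the 6 mutant arrays, and the other 3 mutant arrays read within or close to the range of the controls, so that the groups overlapped. Neither control array was well above background, so the mean in NrasG12D/+ was at least 4.17-fold that of Nras+/+, with 2 of 3 NrasG12D/+ arrays above background, and the mean in NrasG12D/G12D at least 1.58-fold, also with 2 of 3. These bounds hold for the scaling used here and not with normexp background correction, where the log2 changes were 0.79 and 0.26. They also fail without replicate 1 of the mutant genotype. The log2 changes, which take the dim controls as read, were then 2.32 in NrasG12D/+ and 0.40 in NrasG12D/G12D. The fitted log2 changes were 2.88 (SE 1.42, limma adjusted p = 0.809) for NrasG12D/+ against Nras+/+ and 1.48 (SE 1.42, limma adjusted p = 0.783) for NrasG12D/G12D against Nras+/+.

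NrasG12D/+ replicate 3, the low array of its group, shared a slide with the NrasG12D/G12D arrays, and replicates 1 and 2 shared the other slide with both controls. Within that other slide the log2 change of the 1-spot Rela probe was 4.04 (limma adjusted p = 0.562). Without NrasG12D/+ replicate 1 it was 2.32 (limma adjusted p = 0.971).

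The 10-spot Rela probe, further upstream in the same transcript, read 10.6, 4.06 and 7.05 in NrasG12D/G12D HSCs, 18.1, 2.51 and 3.85 in NrasG12D/+ HSCs, and 2.25 and 3.46 in Nras+/+ HSCs. All 3 NrasG12D/G12D values stood above both controls, while the NrasG12D/+ values overlapped the controls. On NrasG12D/+ replicate 1, 10 of 10 spots were above background, with unscaled signals between 21.7 and 45.4. On NrasG12D/G12D replicate 1 it was 6 of 10 spots, between 10.1 and 21. No spot was above background on the other 6 arrays. NrasG12D/+ replicate 1 also had the highest summed neutrophil marker signal (44344) and megakaryocyte marker signal (1006) of all 8 arrays. There 4 of 8 neutrophil markers and 2 of 4 megakaryocyte markers were above background, the same numbers as on NrasG12D/+ replicate 2. Such sums can rest on few bright probes. The neutrophil sums were 210 and 156 on the other NrasG12D/+ arrays, and 28983 on NrasG12D/G12D replicate 3. The part of such cells in the Rela signal was not tested.

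Both controls and 2 of 3 arrays in each mutant genotype were not well above background, so no fold is given and the order of these arrays ranks dim readings. For this probe the fitted log2 change was 1.002 (SE 0.97, limma adjusted p = 0.817) in NrasG12D/+ and 1.27 (SE 0.97, limma adjusted p = 0.748) in NrasG12D/G12D, each against Nras+/+. Without NrasG12D/+ replicate 1 the first of these was 0.15, and with normexp background correction both turned negative (-0.27 and -0.10). NrasG12D/+ replicate 2 was the highest array by the 1-spot probe and below background by the 10-spot probe. Across the 8 arrays the probes had a Pearson correlation of 0.55 and a Spearman correlation of 0.40, given as a description, since both were read from the same samples.

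Rel, the c-Rel subunit best known from lymphocytes, read 20.2, 32.4 and 20.3 in NrasG12D/G12D HSCs, 12.7, 17.9 and 40.1 in NrasG12D/+ HSCs, and 39.3 and 50.5 in Nras+/+ HSCs. All NrasG12D/G12D arrays stood below both controls, and 2 of 3 NrasG12D/+ arrays did. Its log2 change was -0.91 (SE 0.77, limma adjusted p = 0.764) in NrasG12D/G12D and -1.09 (SE 0.77, limma adjusted p = 0.809) in NrasG12D/+, each against Nras+/+. Among the tested probes of these genes, Rel had the smallest residual spread between arrays, an SD of 0.60 that lay at the 12.4th percentile of all tested probes. The log2 change of NrasG12D/G12D against Nras+/+ was -0.41 with scaling over all probes and -0.55 with quantile normalization. It was -0.48 with normexp background correction and -0.27 with the deposited value table. In unscaled signal NrasG12D/G12D replicate 1 read 29.1 and Nras+/+ replicate 2 read 29, so these groups overlapped. With the slide as a block, the difference of NrasG12D/G12D from Nras+/+ was -2.32 (limma adjusted p = 0.553). That blocked value rests on the NrasG12D/+ arrays, since no slide holds both groups.

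Relb, a subunit that acts with the processed product of Nfkb2 in the non-canonical branch, read 1171, 3.79 and 10.4 in NrasG12D/G12D HSCs, 8.46, 6.45 and 5.05 in NrasG12D/+ HSCs, and 2.47 and 88.3 in Nras+/+ HSCs. A single array, NrasG12D/G12D replicate 1, read more than any other, followed by Nras+/+ replicate 2, and the groups overlapped. The residual SD of 3.24 lay at the 97.1st percentile of all tested probes. The log2 change of NrasG12D/G12D against Nras+/+ was 1.28 (SE 2.30, limma adjusted p = 0.881), and without NrasG12D/G12D replicate 1 it was -1.23. Against NrasG12D/+ it was 2.46 (SE 2.05, limma adjusted p = 0.860), and -0.05 without that array. On that array the summed B cell marker signal was 612, in a range of 315 to 612 over NrasG12D/G12D arrays, 201 to 615 over NrasG12D/+ arrays and 324 to 377 over Nras+/+ arrays. Of 8 B cell markers 6 were above background on at least 1 array, and Cd79a and Ebf1 on none. The summed neutrophil marker signal on NrasG12D/G12D replicate 1 was 99.2, the lowest of all 8 arrays, with 1 of 8 markers above background on that array. Over all arrays, 6 of 8 neutrophil markers were above background on at least 1, and Camp and S100a8 on none. The part of B cells and neutrophils in the Relb value was not tested.

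Nfkb2 encodes p100, which acts as an inhibitor until it is cut to the DNA-binding subunit p52. It read 131, 1618 and 73.1 in NrasG12D/G12D HSCs, 131, 191 and 144 in NrasG12D/+ HSCs, and 374 and 127 in Nras+/+ HSCs. The NrasG12D/+ arrays were close together, with an SD of 0.28 on the log2 scale, while the NrasG12D/G12D arrays spanned both the highest and the lowest value (SD 2.37, n = 3 each). The log2 change was 0.19 (SE 1.26, limma adjusted p = 0.971) for NrasG12D/G12D and -0.50 (SE 1.26, limma adjusted p = 0.924) for NrasG12D/+, each against Nras+/+. Without NrasG12D/G12D replicate 2, the array with the high value, the first of these was -1.15. On that array the summed T and NK cell marker signal was 2351, the highest of all 8, with 5 of 8 such markers above background there. Over all arrays, 6 of 8 were above background on at least 1. The part of such cells in the Nfkb2 value was not tested.

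Over the 8 arrays, the probes whose pattern was most like that of Nfkb2, among 4464 probes of other annotated genes above background on every array, were those of Tpm1 (Pearson r = 0.96), Ski (0.95) and Usp20 (0.94). With 1 array far above the rest, such correlations rest largely on it, and they are given without a test.

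Nfkb1 encodes p105 and its product p50, the usual partner of p65. None of its 4 probes stood well above background on any array: their unscaled processed signals lay between 1.69 and 4.76. The probe with the highest of these, matched to a cDNA clone that the array annotation calls unclassifiable, read 2.3, 2.34 and 1.98 in NrasG12D/G12D, 4.55, 4.01 and 4.76 in NrasG12D/+ and 1.86 and 1.69 in Nras+/+ HSCs, all below the background call. Ikbkb, the kinase that marks IkB proteins, stayed between 1.86 and 2.76. In a limma fit without the filter on dim probes, the 5 probes of both genes had log2 changes between -0.80 and 0.64 over the 3 comparisons, each with an adjusted p of 0.839 or higher. Such changes set dim readings against each other, and a signal that is not well above background is not an absence.

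Nfkbia encodes IkB-alpha, the inhibitor that NF-kB itself induces and that ends a pulse of activity. It read 36.5, 132 and 38.7 in NrasG12D/G12D HSCs, 27.6, 31.8 and 78.3 in NrasG12D/+ HSCs, and 64.7 and 64.6 in Nras+/+ HSCs. In each mutant genotype 2 arrays stood below the controls and 1 above, so the groups overlapped. Fitted log2 changes were -0.18 (SE 0.87, limma adjusted p = 0.959) in NrasG12D/G12D and -0.66 (SE 0.87, limma adjusted p = 0.855) in NrasG12D/+, each against Nras+/+. The first of these turned positive when arrays were scaled over all probes (0.33), by quantile normalization (0.10) or with the deposited value table (0.47), and it was -1.58 with the slide as a block.

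Nfkbib encodes IkB-beta, a slower-acting inhibitor of the same dimers. It read 9.98, 3.30 and 17.6 in NrasG12D/G12D HSCs, 13.0, 20.7 and 15.3 in NrasG12D/+ HSCs, and 4.40 and 33.9 in Nras+/+ HSCs. The controls held both the highest value and 1 of the lowest, which puts every mutant value except that of NrasG12D/G12D replicate 2 between them. Its fitted log2 change was -0.55 (SE 1.06, limma adjusted p = 0.889) in NrasG12D/G12D and 0.39 (SE 1.06, limma adjusted p = 0.930) in NrasG12D/+, each against Nras+/+.

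Nfkbie encodes IkB-epsilon, a further inhibitor of p65 and c-Rel dimers. It read 47.6, 9.04 and 10.3 in NrasG12D/G12D HSCs, 6.17, 11.1 and 11.1 in NrasG12D/+ HSCs, and 11.9 and 15.1 in Nras+/+ HSCs. The 3 NrasG12D/+ values lay below both controls, while NrasG12D/G12D replicate 1 lay above all other arrays. Only NrasG12D/G12D replicate 1 and NrasG12D/+ replicate 2 were well above background, so no fold is given, and the order of the other arrays ranks dim readings after scaling. In unscaled signal, NrasG12D/+ replicate 2 read 15.6, above both controls (11.7 and 8.65). The log2 change was 0.30 (SE 0.90, limma adjusted p = 0.933) in NrasG12D/G12D and -0.55 (SE 0.90, limma adjusted p = 0.881) in NrasG12D/+, each against Nras+/+. Without NrasG12D/G12D replicate 1, which was also the high array for Relb and the highest NrasG12D/G12D array for both Rela probes, the first of these was -0.47, and it was -0.11 with normexp background correction and -0.13 with the slide as a block.

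Tnfaip3 encodes A20, an enzyme that edits ubiquitin chains and shuts off signals to the kinase complex. It read 1.77, 3.28 and 2.54 in NrasG12D/G12D HSCs, 1.17, 3.27 and 5.59 in NrasG12D/+ HSCs, and 10.6 and 12.8 in Nras+/+ HSCs. All 6 mutant arrays stood below both controls, but only Nras+/+ replicate 1 was well above background, so the probe did not enter the test and no fold is given. Among the probes tested, 23.2% were lower without overlap in NrasG12D/G12D and 16.6% in NrasG12D/+, each against the same controls. In the unscaled processed signals the highest mutant array read 4.61 and the lower control 7.34, and with normexp background correction 4 of 6 mutant arrays lay below both controls. As 7 of the 8 readings were not well above background, their order ranks dim readings. In the limma fit without the filter the adjusted p was 0.923 in NrasG12D/G12D and 0.839 in NrasG12D/+, each against Nras+/+.

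**Figure D2:**
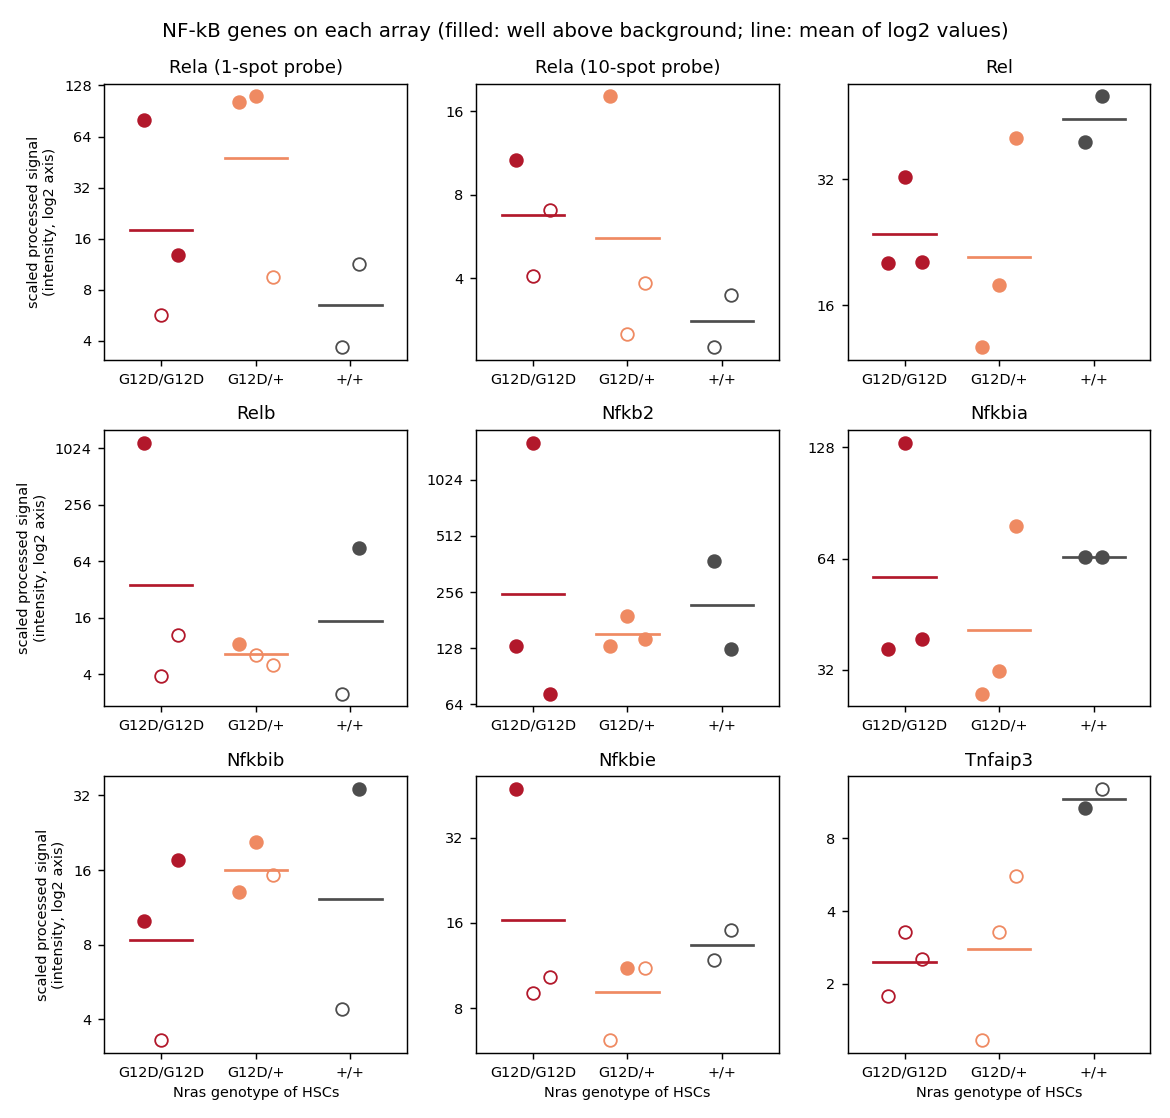
Scaled processed signal (intensity, log2 axis, a scale of its own per panel) of each array for the 8 tested probes and Tnfaip3, by Nras genotype, with filled points well above background and lines at the mean of log2 values. Single arrays set the highest values of Relb (1171) and Nfkb2 (1618), and all mutant points of Tnfaip3 lie below both controls.

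Across the 8 tested probes, none passed the limma threshold of adjusted p under 0.05 in any of the 3 comparisons, and none reached an unadjusted p under 0.05. On the whole array 0.0% of probes passed in each comparison, and an unadjusted p under 0.05 was reached by 4.76% of probes when NrasG12D/+ was set against Nras+/+, by 6.56% when NrasG12D/G12D was, and by 5.8% when NrasG12D/G12D was set against NrasG12D/+. All 8 intervals of 95% spanned 0 in each comparison. Standard errors of the log2 changes against Nras+/+ lay between 0.77 (Rel) and 2.30 (Relb). Changes of several SE could still go undetected with these arrays. A Bcl2l1 probe given below, with a log2 change of 5.96 (SE 1.60), had a limma adjusted p of 0.715.

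In NrasG12D/+ against Nras+/+, the mean was higher for 3 of the 8 probes and lower for 5. Their median log2 change was -0.53, beside -0.29 over all probes tested, of which 41.2% had a higher mean. The groups did not overlap for 1 probe, Nfkbie, which was lower, beside 16.6% of all probes lower without overlap and 8.65% higher. This order rests on readings not well above background on 4 of these 5 arrays. In NrasG12D/G12D against Nras+/+, the mean was higher for 5 probes and lower for 3. Their median was 0.25, beside -0.47 over all probes, of which 34.9% had a higher mean. Here the 10-spot Rela probe was higher without overlap (5.79% of all probes), with 4 of these 5 arrays not well above background, and Rel was lower without overlap (23.2% of all probes). In NrasG12D/G12D against NrasG12D/+, the mean was higher for 6 probes and lower for 2. Their median was 0.37, beside -0.20 over all probes, of which 42.1% had a higher mean, and no member probe was free of overlap (2.88% of all probes higher and 8.59% lower). The comparisons against Nras+/+ share the same 2 control arrays, and the 8 probes hold 2 of the same gene, so these counts are descriptions.

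Between the mutant genotypes, the log2 changes of NrasG12D/G12D against NrasG12D/+ for the remaining probes were 0.70 (SE 1.13) for Nfkb2, 0.48 (SE 0.77) for Nfkbia, -0.95 (SE 0.95) for Nfkbib, 0.85 (SE 0.80) for Nfkbie and 0.18 (SE 0.69) for Rel. The Rela probes went opposite ways, with -1.40 (SE 1.27) for the 1-spot probe and 0.27 (SE 0.87) for the 10-spot probe. Within the slide that holds the 3 NrasG12D/G12D arrays and 1 NrasG12D/+ array, the changes of the 1-spot Rela probe (0.93), Nfkbia (-0.45) and Rel (-0.76) had the opposite sign. No probe of these genes passed in either fit.

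**Figure D3:**
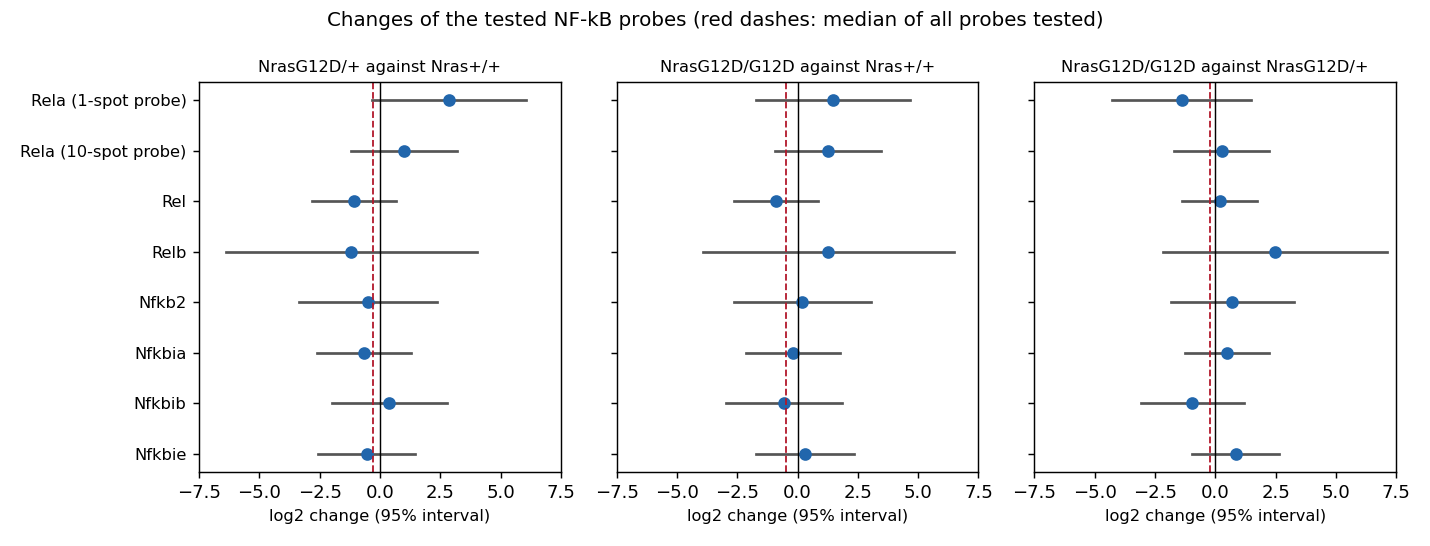
Log2 change with its 95% interval from limma for the 8 tested probes in the 3 comparisons, with the first-named genotype over the second; the dashed line marks the median of all probes tested. Every interval crosses 0, and the Relb interval is the widest.

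The rest of the pathway was counted from 3 lists of genes, which share a few members such as Il1b. Of 23 upstream kinases, adaptors and regulators, 20 were on the array and 11 were tested with 14 probes; 6 probes had a higher and 8 a lower mean in NrasG12D/+ (median -0.21), and 7 each in NrasG12D/G12D (median -0.04), each against Nras+/+. Of 16 receptors and ligands, 12 were tested with 13 probes, with 7 higher and 6 lower in NrasG12D/+ (median 0.04) and also in NrasG12D/G12D (median 0.24). Of 29 target genes, 18 were tested with 24 probes, with 12 higher and 12 lower in each mutant genotype (median -0.09 in NrasG12D/G12D and -0.04 in NrasG12D/+). Over all probes tested, the medians against Nras+/+ were -0.47 in NrasG12D/G12D and -0.29 in NrasG12D/+, with 34.9% and 41.2% of probes higher. In NrasG12D/G12D against NrasG12D/+ the counts of higher and lower were 6 and 8 upstream (median -0.07), 6 and 7 among receptors and ligands (median -0.0076) and 12 and 12 among targets (median 0.11). In limma 0 probes of each list passed in any comparison. At an unadjusted p under 0.05 there were 0, 1 and 2 probes for NrasG12D/+ against Nras+/+, 1, 1 and 4 for NrasG12D/G12D against Nras+/+, and 0, 0 and 3 between the mutant genotypes, in the order upstream, receptors and ligands, targets. The shares of all probes at that p were 4.76%, 6.56% and 5.8%.

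Tnip1, a partner of A20 in shutting off the pathway, read 13.9, 18.3 and 20.6 in NrasG12D/G12D HSCs, 16.3, 26.7 and 42.4 in NrasG12D/+ HSCs, and 138 and 49.96 in Nras+/+ HSCs. All 6 mutant arrays stood below both controls, and the probe was above background on all 8 arrays. Of all probes tested, 23.2% were lower without overlap in NrasG12D/G12D and 16.6% in NrasG12D/+, each against Nras+/+. The shares higher without overlap were 5.79% and 8.65%, and 2.88% in NrasG12D/G12D against NrasG12D/+. Tnip1 and the genes below were named for a small p in these data, so such separation was in part fixed by that choice. Log2 changes were -2.25 (SE 0.79, limma adjusted p = 0.715) in NrasG12D/G12D and -1.65 (SE 0.79, limma adjusted p = 0.809) in NrasG12D/+, each against Nras+/+. Leaving out Nras+/+ replicate 1, these were -1.52 and -0.92, and with normexp -1.04 and -1.02.

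Bcl10, an adaptor that links antigen receptors to the kinase complex, read 41.0, 19.7 and 32.4 in NrasG12D/G12D HSCs, 178, 39.1 and 72.5 in NrasG12D/+ HSCs, and 21.3 and 23.8 in Nras+/+ HSCs. The NrasG12D/+ arrays stood above both controls (log2 change 1.82, SE 0.84, limma adjusted p = 0.809), while a further Bcl10 probe, above background on 2 arrays, had a change of -1.07. Without NrasG12D/+ replicate 1, the array with the highest neutrophil marker sum, the first was 1.24 (the part of such cells was not tested), and with normexp it was 0.58. Myd88, the adaptor of Toll-like and interleukin-1 receptors, read 9.57, 30.7 and 19.8 in NrasG12D/G12D, 6.90, 11.7 and 15.1 in NrasG12D/+ and 20.3 and 28.2 in Nras+/+ HSCs. Its NrasG12D/+ arrays stood below both controls (log2 change -1.16, SE 0.79, limma adjusted p = 0.809). Irak1, a kinase that acts after Myd88, had a log2 change of 1.53 (SE 1.07, limma adjusted p = 0.737) in NrasG12D/G12D against Nras+/+. That was the probe with the smaller p of 2 tested for Irak1, and the other is not reported.

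Ltb, a ligand that drives the non-canonical branch, read 2.21, 13.6 and 11.7 in NrasG12D/G12D HSCs, 8.78, 8.58 and 16.0 in NrasG12D/+ HSCs, and 17325 and 23.8 in Nras+/+ HSCs. Both controls stood above all mutant arrays, but the size of the difference came from Nras+/+ replicate 1. The log2 change was -6.51 (SE 2.24, limma adjusted p = 0.715) in NrasG12D/G12D and -5.92 (SE 2.24, limma adjusted p = 0.809) in NrasG12D/+, each against Nras+/+. Without Nras+/+ replicate 1 these were -1.75 and -1.17. Without Nras+/+ replicate 2, which leaves that single high control, they were -11.26 and -10.67 and passed the threshold (limma adjusted p = 0.0352 and 0.0462), with the lone control assumed to vary like the other groups.

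Among the other receptors and ligands with the smallest p-values, Tnfrsf1b, a receptor of tumour necrosis factor, read 407, 15.2 and 60.6 in NrasG12D/G12D HSCs, 77.1, 73.0 and 164 in NrasG12D/+ HSCs, and 46.4 and 11.2 in Nras+/+ HSCs. Its NrasG12D/+ arrays stood above both controls (log2 change 2.10, SE 1.32, limma adjusted p = 0.809). Tnfsf13b, the B cell survival ligand BAFF, had log2 changes of 1.41 in NrasG12D/G12D and 1.75 in NrasG12D/+ (SE 1.03 each, limma adjusted p = 0.740 and 0.809). These came from the probe with the smaller p of 2 tested for Tnfsf13b, and the other is not reported. Il1b, the inflammatory cytokine interleukin-1 beta, had 0.63 and 2.33 (SE 1.45 each, limma adjusted p = 0.905 and 0.809).

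Bcl2l1, which encodes the survival protein Bcl-xL, had a probe that read 20.4, 1645 and 247 in NrasG12D/G12D HSCs, 14.6, 5.11 and 3.39 in NrasG12D/+ HSCs, and 2.16 and 4.93 in Nras+/+ HSCs. All 3 NrasG12D/G12D arrays stood above the other 5, and no control array was well above background. The mean in NrasG12D/G12D was at least 17.8-fold that of Nras+/+ (log2 change 5.96, SE 1.60, limma adjusted p = 0.715), and its log2 change against NrasG12D/+ was 5.0 (SE 1.43, limma adjusted p = 0.807). Against Nras+/+ the change was 4.44 without NrasG12D/G12D replicate 2. With normexp background correction it was 2.08. The bound takes each control at no less than the lowest signal above background, and it holds in neither case. A further Bcl2l1 probe, above background on all 8 arrays, had a change of -0.81 in NrasG12D/G12D against Nras+/+. The probes of this gene disagreed in direction.

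Ccl5, a chemokine of T cells and inflamed tissue, read 218, 514 and 577 in NrasG12D/G12D HSCs, 356, 378 and 299 in NrasG12D/+ HSCs, and 147 and 35.7 in Nras+/+ HSCs. All 6 mutant arrays stood above both controls, with log2 changes of 2.47 (SE 0.86, limma adjusted p = 0.715) in NrasG12D/G12D and 2.24 (SE 0.86, limma adjusted p = 0.809) in NrasG12D/+. Against Nras+/+, these were 3.49 and 3.26 without Nras+/+ replicate 1, and 1.45 and 1.22 without Nras+/+ replicate 2. A further Ccl5 probe, above background on 3 arrays, had changes of -1.96 and -0.97. The summed T and NK cell marker signal lay between 428 and 2351 in NrasG12D/G12D, between 162 and 1313 in NrasG12D/+ and between 585 and 591 in Nras+/+ HSCs, with Cd3d and Lck above background on no array. The part of such cells in the Ccl5 signal was not tested.

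Traf1, an adaptor of tumour necrosis factor receptors, read 224, 75.8 and 64.7 in NrasG12D/G12D HSCs, 5.48, 39.3 and 38.6 in NrasG12D/+ HSCs, and 27.5 and 12.8 in Nras+/+ HSCs. The NrasG12D/G12D arrays stood above all others, with log2 changes of 2.46 (SE 1.07, limma adjusted p = 0.715) against Nras+/+ and 2.35 (SE 0.96, limma adjusted p = 0.807) against NrasG12D/+. With the slide as a block these were 1.07 and 1.42, and with normexp 0.84 and 1.20. Sod2, the mitochondrial superoxide dismutase, read 5.63, 8.25 and 24.2 in NrasG12D/G12D HSCs, 218, 387 and 13.7 in NrasG12D/+ HSCs, and 10.1 and 7.73 in Nras+/+ HSCs. Its mean in NrasG12D/+ was at least 8.84-fold that of Nras+/+, with 2 of 3 arrays above background (log2 change 3.57, SE 1.37, limma adjusted p = 0.809). The change was 2.63 without NrasG12D/+ replicate 2 and 1.35 with normexp, so the bound does not hold in either case. The arrays with high Sod2 were NrasG12D/+ replicates 1 and 2, the same that read high by the 1-spot Rela probe, and within the slide of those arrays and the controls the Sod2 change was 5.04 (limma adjusted p = 0.371).

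**Figure D4:**
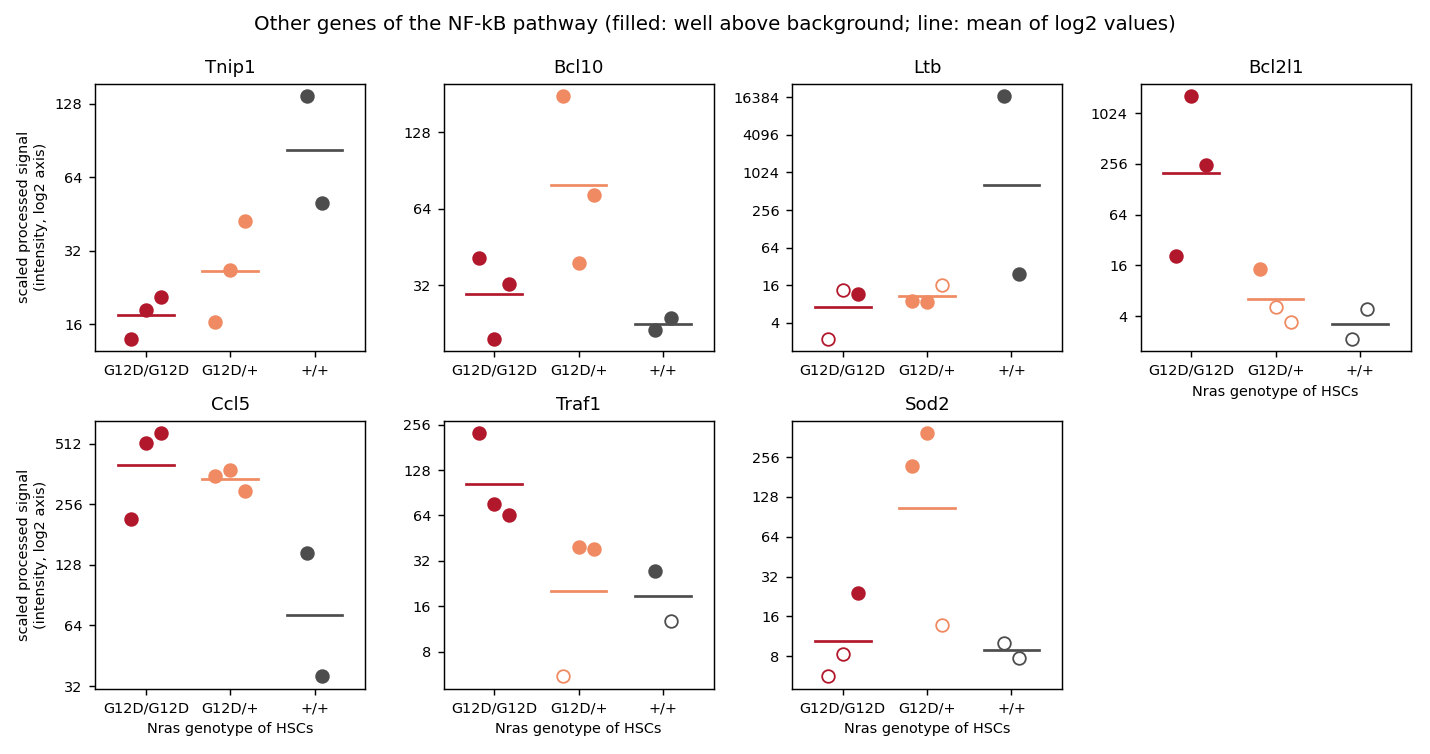
Scaled processed signal (intensity, log2 axis, a scale of its own per panel) of each array for 7 other pathway genes by Nras genotype, with filled points well above background and lines at the mean of log2 values. Mutant arrays lie below both controls for Tnip1 and Ltb and above both for Ccl5, and 1 control array sets the Ltb mean.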

How the data were processed

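Total RNA of HSCs from 3 NrasG12D/G12D, 3 NrasG12D/+ and 2 Nras+/+ samples was labelled with Cy3 by a Miltenyi Biotec protocol that the labels leave undisclosed. The deposited scanner files hold linear intensities and flags of 0 or 1, made with Feature Extraction 10.5.1.1 (protocol GE1_105_Jan09) per the file headers; the processed signal is background-subtracted and not scaled between arrays. The deposited value table holds a ratio, each processed signal over its array's median (largest relative deviation 1.7e-06). It served as an alternative.

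Outlier spots (120 to 464 of 45018 per array) were set to missing, none was saturated, and log2 signals were averaged over spots and scaled as described. Probes well above background on at least 2 arrays entered a two-sided limma 3.58.1 fit (lmFit, eBayes; R 4.3.3), with Benjamini-Hochberg adjustment over all 18389 probes at 0.05 and 1 spread for the 3 groups (5 residual and 4.05 prior degrees of freedom). Precision is limited by how few arrays there are.

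The members and lists were chosen with earlier results of these data known. Besides all member probes, up to 4 genes per list with the smallest unadjusted p in any comparison were named, each by its probe with the smallest p. Where a probe was below background on every array of a group, the brighter group's mean was set against the higher, per array, of that probe's signal and the lowest signal above background. Same-numbered replicates deviated with r from -0.0867 to 0.0731, so the numbers were not treated as pairs. The alternatives were 2 scalings, normexp with an offset of 50, the value table, 2 filters, 1 probe a gene, a fit of 2 groups, the slide, the replicate block and leaving out each array. Those for named pathway genes, and the unscaled signal for Tnfaip3, were chosen after seeing the data.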

Additional observations from a re-analysis of the deposited data

How the results depend on the processing

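The number of probes past the limma threshold over the whole array was 0 in each comparison, and no probe of the 10 genes passed under any alternative run. For NrasG12D/+ against Nras+/+ the number was 1 with the value table and 1 without the filter on dim probes, and 0 to 11 when single arrays were left out. For NrasG12D/G12D against Nras+/+ it was 3 with quantile normalization, 2 without the filter, 1 in a fit of only these groups, 1 with the slide as a block and 0 to 10 without single arrays. For NrasG12D/G12D against NrasG12D/+ it was 9 with the slide as a block and 0 to 2 without single arrays. The highest of these, 11 and 10, came without Nras+/+ replicate 2. With the replicate block the number was 0 in each comparison. Within slide 1, which holds both controls and NrasG12D/+ replicates 1 and 2, it was 0 for NrasG12D/+ against Nras+/+. NrasG12D/G12D against Nras+/+ had no fit within a slide, since no slide holds both groups. Slide 2 holds only 1 NrasG12D/+ array, so no number is given for it.

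Of 24 log2 changes of the 8 tested probes, 7 kept their sign under every alternative run. In NrasG12D/+ against Nras+/+, normexp turned Nfkbib to -0.33 and the 10-spot Rela probe to -0.27. In NrasG12D/G12D against Nras+/+, Nfkbia turned to 0.33 with scaling over all probes, 0.10 with quantile normalization and 0.47 with the value table, Nfkbib to 0.094 with the value table, Nfkbie to -0.11 with normexp and -0.13 with the slide as a block, and the 10-spot Rela probe to -0.10 with normexp. Between the mutant genotypes, Nfkbib turned to 0.043 with normexp, and the slide as a block and the fit within slide 2 (the NrasG12D/G12D arrays and NrasG12D/+ replicate 3) both gave -0.45 for Nfkbia, -0.76 for Rel and 0.93 for the 1-spot Rela probe. The cause was not tested.

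Without single arrays, in NrasG12D/+ against Nras+/+ the change lay between -1.28 and 0.28 for Nfkb2, -1.08 and 1.87 for Nfkbib and -3.76 and 1.40 for Relb. In NrasG12D/G12D against Nras+/+ it lay between -1.15 and 1.08 for Nfkb2, -0.78 and 0.14 for Nfkbia, -2.03 and 0.92 for Nfkbib, -0.47 and 0.73 for Nfkbie and -1.30 and 3.86 for Relb. Between the mutant genotypes it lay between -0.65 and 1.58 for Nfkb2, -0.12 and 0.95 for Nfkbia, -0.18 and 0.65 for Rel, -0.31 and 1.11 for the 10-spot Rela probe and -0.050 and 4.09 for Relb. Alternatives were followed for 14 changes of Tnip1, Bcl10, Ltb, Bcl2l1, Ccl5, Sod2 and Traf1, each with an unadjusted limma p of 0.0897 or lower. Those of Myd88, Irak1, Tnfrsf1b, Tnfsf13b and Il1b were not followed. None of the 14 changed sign. They were picked for a small p in the same data, so this was in part fixed by that choice. It cannot be set beside the count for the tested probes of the 10 genes. Sizes moved as given beside the genes. Between the mutant genotypes Sod2 was -0.40 with the slide as a block and -3.33 without it. Without Nras+/+ replicate 2, Ltb was -11.26 in NrasG12D/G12D and -10.67 in NrasG12D/+, each against Nras+/+. Signal over background limits what can be said: 6 of the 14 probes, those of Nfkb1, Ikbkb and Tnfaip3, were too dim to be tested.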
